A study of Drosophila melanogaster with 3 samples.

Results

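ChIP-seq peaks that flanked or lay downstream of single promoters were examined in whole Drosophila melanogaster prepupae. An upstream peak had its summit more than 200 and at most 500 bp upstream of the nearest protein-coding transcription start site (TSS), and a downstream peak had its summit 1 to 500 bp downstream of it. No TSS of another protein-coding gene on the opposite strand lay within 500 bp of the summit. The peaks were chosen by summit position and by their place in the authors' optimal list, and 805 of the 5246 optimal peaks (15.3%) qualified, of which 497 were upstream and 308 downstream. All 3 libraries belonged to 1 group, biological replicates 1, 2 and 3 of mixed-sex prepupae from a transgenic line that stably expressed CG7368 with GFP at its C terminus, precipitated with an anti-GFP antibody. The age of the animals is unknown per the labels, fragments of 200 to 800 bp were made by sonication, and no level of the fusion protein relative to the native one was available for use here. In whole animals, strong binding in few cells and weaker binding in many cannot be told apart.

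ChIP-seq recovers DNA fragments crosslinked to a protein, and the summit of a peak is the position where those fragments pile up most. RNA polymerase II starts transcription at the core promoter, which surrounds the TSS, and factors bound just upstream of it form the proximal promoter. Downstream of the TSS lie the 5′ untranslated region (5′ UTR) and, in many fly genes, a first intron that can hold further regulatory sites. Divergent promoters, where genes on opposite strands start close together, were kept apart as a comparison class, as were summits from the TSS to 200 bp upstream of it.

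Windows of 6 of the 10 highest upstream peaks are shown first, because base composition at the summit was one of the measures in which upstream and downstream peaks differed. CG1888, CG13501, Sox14 and Lpin, also among the 10, are not printed. Each window runs 50 bp to either side of the summit, 5′ to 3′ on the strand of the nearest gene, and was read from the Release 6 (dm6) assembly. Capitals mark matches to any of the 15 short motifs searched on both strands: TATAAA in the Rtnl1 window, TCAGT, an initiator motif, in the larp and ph-p windows, and GATAAG in the CG4586 window. The windows are larp, chr3R:28326554-28326654, minus strand; ph-p, chrX:2137264-2137364, minus strand; Rtnl1, chr2L:4997630-4997730, minus strand; CG4586, chrX:6969433-6969533, plus strand; Hexo2, chrX:8709383-8709483, plus strand; and cbt, chr2L:480019-480119, minus strand. A and T made up 62.4% (Hexo2) to 73.3% (Rtnl1) of these 6 windows. Within 25 bp of the summit, the 12 highest upstream peaks lay between 47.1% (CG13501, at -28.4 points against its flanks) and 76.5% (Lpin), so the printed windows do not span the range of the class.
larp: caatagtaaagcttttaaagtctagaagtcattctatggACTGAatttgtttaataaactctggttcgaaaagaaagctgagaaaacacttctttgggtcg
ph-p: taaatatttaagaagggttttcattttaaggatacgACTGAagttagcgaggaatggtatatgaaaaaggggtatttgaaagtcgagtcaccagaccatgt
Rtnl1: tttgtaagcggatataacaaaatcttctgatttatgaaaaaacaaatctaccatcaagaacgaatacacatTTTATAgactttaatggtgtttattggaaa
CG4586: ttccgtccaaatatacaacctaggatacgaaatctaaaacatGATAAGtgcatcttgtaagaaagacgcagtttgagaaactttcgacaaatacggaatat
Hexo2: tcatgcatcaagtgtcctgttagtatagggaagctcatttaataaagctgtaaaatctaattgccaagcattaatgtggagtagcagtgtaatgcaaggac
cbt: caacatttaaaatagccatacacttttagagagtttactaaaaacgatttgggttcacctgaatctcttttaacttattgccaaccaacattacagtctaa

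The downstream peaks shown are the 5 of highest signal whose window held no annotated UTR, and all 5 lay in introns, so they do not stand for the downstream peaks in 5′ UTRs. Capitals mark CACACAC repeats in the Cat window, CACCC in the CG5854 window and TAATTA, a homeodomain motif, in the hng3 window, each on either strand. The windows are Cat, chr3L:18822868-18822968, plus strand; CG5854, chr3R:23934358-23934458, plus strand; Ptp4E, chrX:4939916-4940016, plus strand; CG31612, chr2L:21794932-21795032, minus strand; and hng3, chr3L:738877-738977, minus strand. Their A and T content lay between 54.5% (CG5854) and 72.3% (hng3).
Cat: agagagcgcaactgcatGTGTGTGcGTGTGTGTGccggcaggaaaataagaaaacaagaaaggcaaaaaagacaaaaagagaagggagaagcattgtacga
CG5854: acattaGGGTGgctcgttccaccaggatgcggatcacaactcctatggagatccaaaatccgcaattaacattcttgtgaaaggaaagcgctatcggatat
Ptp4E: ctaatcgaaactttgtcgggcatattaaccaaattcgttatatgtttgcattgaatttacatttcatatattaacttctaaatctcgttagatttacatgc
CG31612: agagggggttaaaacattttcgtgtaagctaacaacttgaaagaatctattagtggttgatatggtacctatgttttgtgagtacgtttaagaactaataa
hng3: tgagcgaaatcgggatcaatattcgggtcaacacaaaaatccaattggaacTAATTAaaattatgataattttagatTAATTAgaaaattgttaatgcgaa

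The values are peak signals that the authors deposited, on a scale that the labels do not define, so they were compared only within a list, and between replicates by rank. The number of reads behind each peak is unknown. There were 30000 regions in each of the replicate lists and in the pooled one, and the 5246 optimal peaks are a subset of the pooled list. Signals of the optimal peaks had a median of 169 and lay between 104 and 3148. A width of 416 bp was shared by 69.6% of upstream peaks, 81.8% of downstream peaks and 76.4% of all optimal peaks.

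Summits flanked promoters asymmetrically. The 497 upstream peaks lay in a zone of 300 bp and the 308 downstream peaks in a zone of 500 bp, which made 166 upstream and 61.6 downstream peaks per 100 bp, 2.69 times as many upstream, against 289 per 100 bp in the zone from the TSS to 200 bp upstream. Among the 5246 highest regions of each replicate, 485 ± 7.81 were upstream and 338 ± 39.6 downstream (mean ± SD, n = 3). Upstream regions numbered 489, 490 and 476 and downstream regions 370, 294 and 351 in replicates 1, 2 and 3, so the counts did not overlap. With only the 5′ end of each gene as TSS, there were 289 upstream and 267 downstream optimal peaks, and among peaks in the highest regions of 2 replicates the downstream count was 206, 204 and 198 without replicates 1, 2 and 3. The ratio of upstream to downstream counts per 100 bp was 2.41 ± 0.317 (SD, n = 3). It was above 1 in each replicate. Summit position defined the classes, so the counts and their ratio are a description and depend on the limits chosen. The zones also cover unlike distances: of the downstream peaks, only 22 at 200 to 300 bp and 95 at 300 to 500 bp lay as far from the TSS as the 497 upstream peaks.

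The profile was continuous across the limits of the rule. Summits were most frequent over 100 to 150 bp upstream of the TSS, with 164 optimal peaks in that 50-bp bin, and became fewer with distance: 133 lay 200 to 250 bp upstream and 46 lay 450 to 500 bp upstream (the lower limit of a bin is not part of it). In 100-bp bins, 248, 156 and 93 upstream peaks lay at 200 to 300, 300 to 400 and 400 to 500 bp, with a median distance of 301 bp. Downstream of the TSS the distribution of optimal summits had 2 parts with a gap between them. It held 131 peaks in the first 100 bp and 60 at 100 to 200 bp, then 22 at 200 to 300 bp, and again 47 and 48 at 300 to 400 and 400 to 500 bp. The gap was present in every replicate, whose highest regions numbered 36, 23 and 34 at 200 to 300 bp against 105, 93 and 98 over the 200 bp beyond it. The fewest optimal summits in any 50-bp bin were the 7 at 250 to 299 bp downstream.

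**Figure D1:**
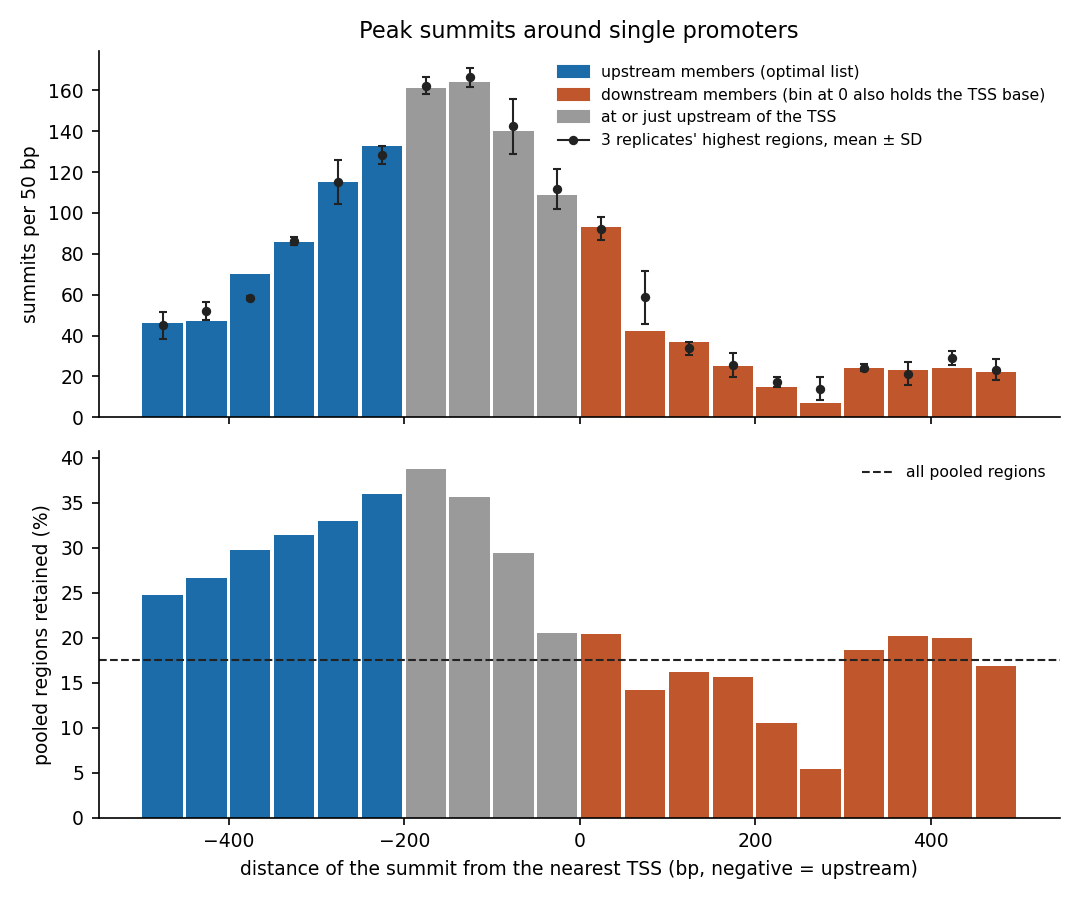
Number of optimal peak summits per 50 bp (bars, upper panel) and share of pooled regions in the optimal list (lower panel, percent) against distance from the nearest TSS in bp. Points give the mean ± SD of the 3 replicates' highest regions. Counts fall on both sides of the bin at 100 to 150 bp upstream, with a trough of 7 summits at 250 to 299 bp downstream.

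Upstream regions of the pooled list were more often in the optimal list than downstream ones. Of 1589 upstream regions, 31.3% were retained (95% Wilson interval 29.0 to 33.6%), against 16.2% of 1897 downstream regions (14.6 to 18.0%) and 17.5% of all 30000 pooled regions. These intervals, like all those below, cover counting error only, and since retention was part of the rule the shares are a description. The share retained was 34.5%, 30.6% and 25.7% in the upstream bins from near to far. Downstream bins had 17.6%, 15.6%, 8.12%, 19.5% and 18.8%, with the low value at 200 to 300 bp, where the 95% interval was 5.42 to 11.99%. Regions at divergent promoters were retained in 45.2% of cases and those from the TSS to 200 bp upstream in 30.7%.

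Upstream peaks as a whole had higher signals than downstream peaks as a whole, but not at every distance. The median signal was 180 for upstream and 150 for downstream peaks, with quartiles of 136 and 325 upstream and 121 and 252 downstream. Within the replicates' own lists, medians were 44.96, 73.01 and 69.98 upstream and 37.89, 64.15 and 54.65 downstream in replicates 1, 2 and 3. The log2 ratio of upstream to downstream medians was 0.25, 0.19 and 0.36, on average 0.26 ± 0.09 (SD, n = 3; exact sign-flip permutation test, two-sided, p = 0.25, the smallest possible). In the optimal list the log2 ratio was 0.26, and among peaks in the highest regions of 2 replicates its value was 0.16, 0.22 and 0.12 when replicate 1, 2 or 3 was left out. Upstream peaks were close to those from the TSS to 200 bp upstream, with a log2 ratio of medians of 0.03 ± 0.02 over the replicates. Downstream peaks were below that class by a log2 ratio of -0.24 ± 0.08 and below divergent promoters by -0.36 ± 0.05 (SD, n = 3 each). Upstream medians were 206, 176 and 160 from the near to the far bin of the optimal list. The same order held in replicates 2 and 3, but replicate 1 had 45.6, 41.5 and 47.9, with the far bin highest. Downstream medians were 142, 138 and 140 in the 3 bins up to 300 bp and then 197 and 159. At equal distance the downstream median was thus above the upstream 176 at 300 to 400 bp and close to the upstream 160 at 400 to 500 bp. Replicate medians at 300 to 400 bp were 39.5, 77.9 and 69.1 downstream and 41.5, 70.9 and 68.6 upstream. At 400 to 500 bp they were 41.5, 78.2 and 63.4 downstream and 47.9, 63.2 and 62.0 upstream.

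**Figure D2:**
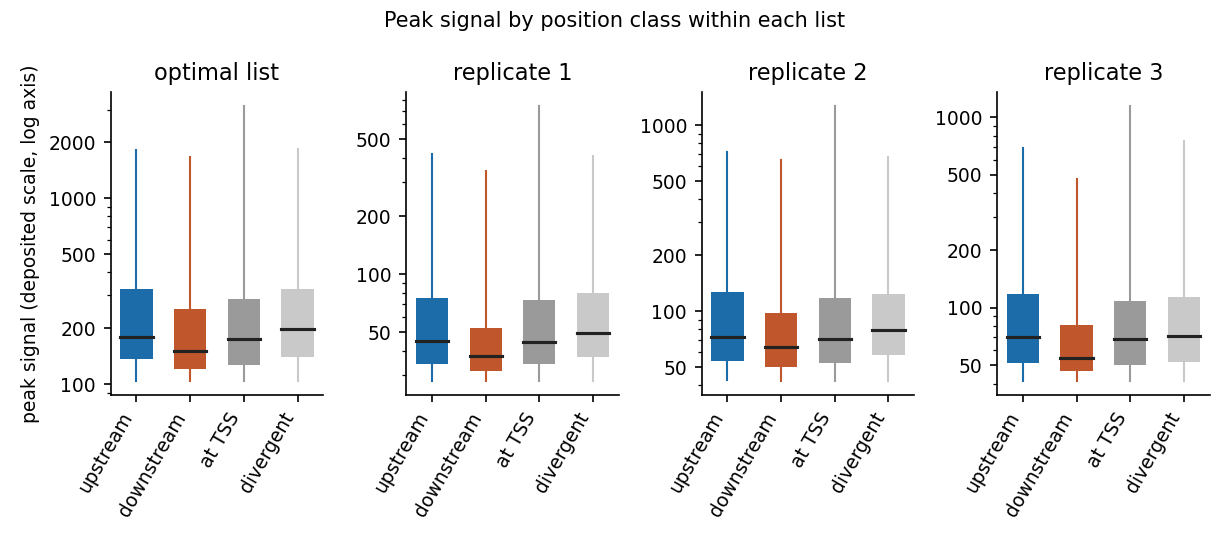
Peak signal on a log axis for upstream, downstream, TSS to 200 bp upstream (at TSS) and divergent-promoter peaks, in the optimal list and in the highest regions of each replicate; each panel has its own scale. Boxes span the quartiles, black lines are medians and thin lines run over the whole range. The downstream median is the lowest of the 4 in each list.

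The highest upstream peak was 340 bp upstream of a start of larp, which encodes a La-related RNA-binding protein, with a signal of 1825 and rank 6 of all optimal peaks. It ranked 6, 5 and 6 in replicates 1, 2 and 3. CG1888 followed with a summit 225 bp upstream, a signal of 1653 and ranks 9, 10 and 9. A summit 459 bp upstream of a start of ph-p, which encodes a Polyhomeotic subunit of Polycomb repressive complex 1, had a signal of 1274 and ranks 24, 21 and 24. All 3 of these summits were inside the same gene's transcribed region, upstream of an internal start. The next 3 were CG13501 (signal 1181), Sox14 (signal 1179), which encodes an HMG-box transcription factor induced by the steroid hormone ecdysone, and Rtnl1 (signal 1018), which encodes a reticulon that shapes the endoplasmic reticulum.

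Lpin, which encodes the phosphatidate phosphatase lipin, had a summit 250 bp upstream with a signal of 1011 and ranks 65, 48 and 62 in replicates 1, 2 and 3. CG4586 and Hexo2, a hexosaminidase gene, had signals of 979 and 913. The zinc finger transcription factor gene cbt had a summit 381 bp upstream, a signal of 882 and ranks 104, 74 and 74. CG3009 and mrt completed the 12 highest with signals of 838 and 815. The mrt summit lay 204 bp upstream in the optimal list, but in all 3 replicates the nearest summit fell inside 200 bp, so its class differed between the optimal list and every replicate.

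Among downstream peaks the highest was at PNPase, which encodes a mitochondrial polynucleotide phosphorylase, 83 bp downstream with a signal of 1658 and rank 8. It ranked 16, 8 and 7 in replicates 1, 2 and 3. GstE13, a glutathione S-transferase gene, had a summit 87 bp downstream, a signal of 1115 and ranks 55, 55 and 26. CG32772 had a summit 43 bp downstream with a signal of 981. Its ranks of 18, 71 and 131 were spread more widely than those of any of the 12 highest upstream peaks. Cat, the gene of the catalase that breaks down hydrogen peroxide, had its summit 314 bp downstream in the first intron, with a signal of 843 and ranks 32, 127 and 183. CG5854 had a summit 496 bp downstream, at the edge of the rule, with a signal of 831, and the nearest summit lay past 500 bp in replicates 2 and 3.

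The other 7 of the 12 highest downstream peaks had signals between 568 (CG2811) and 640 (Ptp4E, a receptor tyrosine phosphatase gene). They were CG31612, hng3, yip2, a second ph-p peak, egh, which encodes a glycolipid mannosyltransferase, Ptp4E and CG2811. Replicate 1 ranked CG32772, Cat, CG5854, CG31612, hng3, yip2 and ph-p higher than replicates 2 and 3 did. Over all downstream peaks found in every replicate's full list, the best of the 3 ranks fell in replicate 1 for 118 of 298 (39.6%), in replicate 2 for 80 and in replicate 3 for 100. For upstream peaks the best rank fell in replicate 1 for 131 of 485 (27.0%), in replicate 2 for 178 and in replicate 3 for 176.

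**Figure D3:**
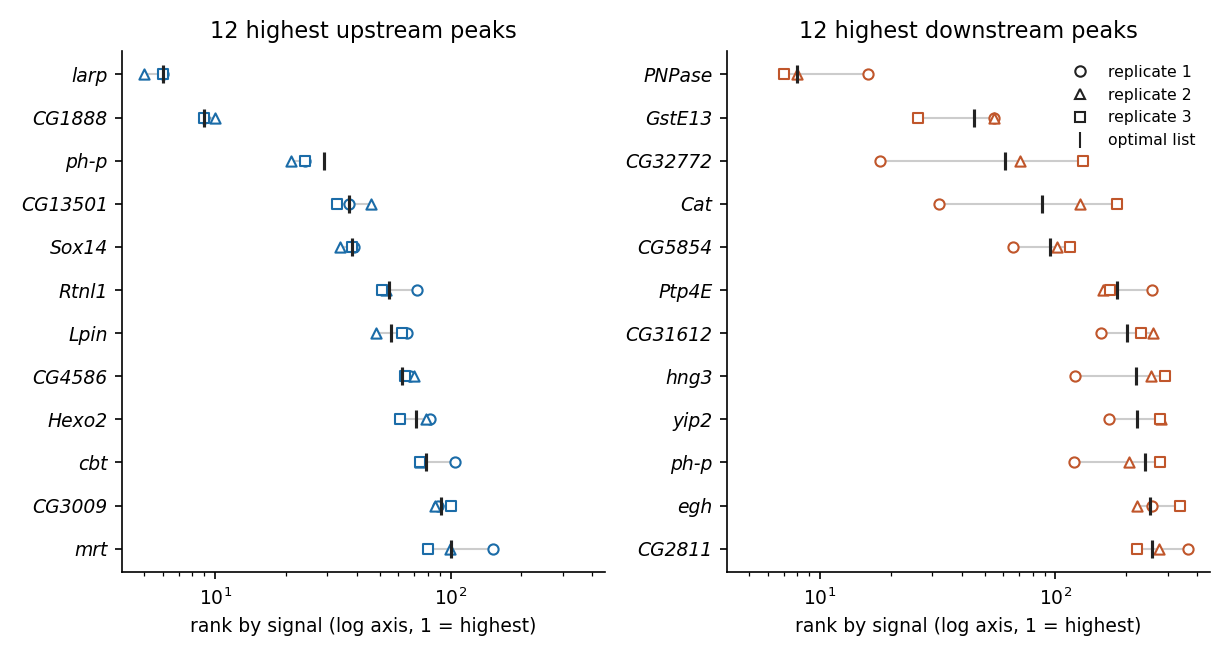
Rank by signal (log axis, 1 is the highest) of the 12 highest upstream peaks (left) and the 12 highest downstream peaks (right), labelled by the gene of the nearest TSS. Symbols are the 3 replicates and black ticks the optimal list. Upstream symbols lie close together, while CG32772 runs between ranks 18 and 131.

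Upstream peaks recurred in all replicates more often than downstream peaks. Of the 497 upstream peaks, 358 (72.0%, interval 67.9 to 75.8%) overlapped the 5246 highest regions of all 3 replicates, against 174 of 308 downstream peaks (56.5%, 50.9 to 61.9%) and 66.1% of all optimal peaks. The optimal list was made from the same replicates, so these shares are a description. The share differed with signal. Among the 1311 optimal peaks of highest signal, the share was 100% for upstream, 97.2% for downstream and 98.9% for all peaks. In the next group of like size it was 92.9% upstream and 86.2% downstream. In the group after that it was 59.8% and 55.6%, and the upstream and downstream intervals overlapped in both of these groups. In a group of like size with the lowest signal it was 18.0% for upstream, 9.28% for downstream and 11.8% for all peaks, with overlapping intervals for upstream (11.7 to 26.7%) and downstream (4.96 to 16.7%).

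Summit positions differed little between replicates. The median shift between the optimal summit and the nearest replicate summit was 24, 18 and 17 bp for upstream peaks and 23, 14 and 15 bp for downstream peaks in replicates 1, 2 and 3. The class was the same in all 3 replicates for 360 upstream peaks (72.4%, 68.3 to 76.2%) and 213 downstream peaks (69.2%, 63.8 to 74.1%). Most upstream peaks that changed class moved nearer the TSS, for example 49 in replicate 1, against 18 that moved beyond 500 bp and 4 that moved downstream of it. Near the limits, Dp and CG11151 were just inside with summits 1 bp beyond the 200 bp limit and signals of 638 and 632, while CG11438 at 200 bp (161) and aay at 199 bp (958) were just outside. At the far upstream limit, gce and CG15172 at 500 bp had signals of 321 and 174, and CG3961 and D, 1 and 2 bp beyond that limit, had 278 and 116.

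On the downstream side, RpS4 and Ten-a had summits 1 bp downstream with signals of 344 and 289. RpL35A and RpS29, with summits on the TSS base itself, had 227 and 166 and were outside the rule. At 500 bp downstream Mtp and sktl had signals of 248 and 117, and the next summits out were D2hgdh at 502 bp (115.4) and ced-6 at 510 bp (109). The lowest optimal signals inside the classes were 104.4 for upstream and 104.3 for downstream peaks. The highest pooled signals that were not retained were 103.8 upstream, at apolpp, and 104.0 downstream, at cib.

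Downstream peaks beyond the gap and those near the TSS differed in place. Of all 308, 207 summits (67.2%, 61.8 to 72.2%) lay in a 5′ UTR and 89 (28.9%, 24.1 to 34.2%) in a first intron, with 7 in coding exons, 4 in later introns and 1 in a 3′ UTR. The 5′ UTR share among the replicates' own downstream regions was 67.0 ± 2.13% (SD, n = 3). Of the 95 peaks at 300 to 500 bp, here the far zone, 29.5% were in a 5′ UTR and 62.1% in a first intron, whereas of the 191 at 1 to 200 bp, the near zone, 86.4% were in a 5′ UTR and 13.1% in a first intron. The 5′ UTR share of the replicates was 26.3 ± 0.462% in the far zone and 89.7 ± 1.57% in the near zone (SD, n = 3). First introns lie further from the TSS by construction, so place and distance go together.

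The far downstream zone also had higher signals and recurred more. Its median signal was 195, against 141 in the near zone, and 68.4% of its peaks were among the highest regions of all replicates, against 50.8%. Medians within replicates were 40.8, 77.9 and 64.5 in the far zone and 37.3, 61.8 and 52.5 in the near zone. Cat, CG5854, Ptp4E, CG31612, hng3, ph-p and egh were far-zone peaks, and PNPase, GstE13, CG32772, yip2 and CG2811 were near-zone peaks.

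**Figure D4:**
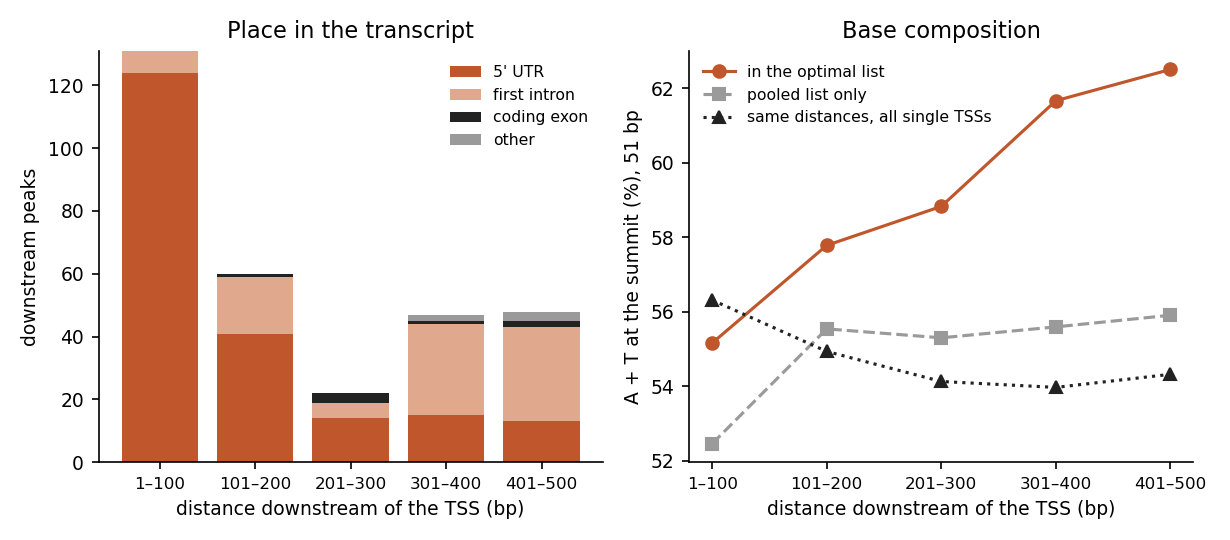
Downstream peaks in 100-bp bins of distance from the TSS: number by place in the transcript (left, bars) and mean A + T content in 51 bp around the summit (right, percent) for optimal peaks, pooled regions not retained, and all single TSSs at the same distances. First introns hold 59 of the 95 peaks beyond 300 bp, and A + T of optimal peaks rises to 62.5% in the last bin.

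Upstream summits lay in A + T rich stretches. Within 25 bp of the summit, A and T made up 66.1% of bases, against 58.1% in windows 300 bp farther from the gene and 52.2% in windows 300 bp nearer to it or inside it. The summit exceeded the mean of its flanks by 11.0 percentage points in the optimal list and by 9.22, 11.0 and 10.2 points in replicates 1, 2 and 3. Upstream regions of the pooled list that were not retained had 59.5% A and T at the summit and exceeded their flanks by 2.83 points. All single promoters at the same distances averaged 62.0%, so optimal upstream summits were 4.16 points above their position and the regions not retained lay at -2.38 points relative to it. The excess over position was 3.17 ± 0.719 points in the replicates (SD, n = 3; exact sign-flip permutation test, two-sided, p = 0.25, the smallest possible).

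Downstream summits as a whole showed no such rise over their flanks. They had 58.1% A and T, 0.347 points above the mean of the flanks, and the replicates gave -1.60, 0.467 and -1.16 points (-0.765 ± 1.09, SD, n = 3), so the direction was not settled. With replicate 1, 2 or 3 left out, only optimal peaks in the highest regions of both others were kept. For these 206, 204 and 198 downstream peaks the value was 2.37, 1.72 and 2.25 points. Relative to the flanks, the value for upstream exceeded that for downstream peaks by 10.9 ± 0.428 points over the replicates (exact sign-flip permutation test, two-sided, p = 0.25). Relative to all single promoters at the same distances, the excess of upstream over downstream was smaller. It was 1.31 points in the optimal list and 1.53 ± 0.385 points in the replicates (SD, n = 3). The far and near downstream zones differed: the far zone was 6.42 points above its flanks and the near zone was at -3.04 points. In replicates the far zone exceeded the near zone by 6.24, 7.17 and 8.08 points (mean 7.16 ± 0.917, n = 3). Against all single promoters at matched distances, downstream summits were 2.85 points higher in the optimal list and 1.65 ± 1.05 points higher in the replicates.

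Composition also followed place in the transcript. Optimal summits in first introns downstream had 64.9% A and T, against 58.2% for first-intron regions not retained, and optimal summits in 5′ UTRs had 55.6%, against 54.1% for 5′ UTR regions not retained. Upstream, the values were 65.1% between genes, against 60.3% for those not retained, and 67.0% in introns of the same gene, against 58.8% for those not retained. The difference between optimal peaks and regions not retained was thus smallest in 5′ UTRs among these 4 places. Sequence composition can affect both the fragments recovered and their mapping, and its part in these values was not tested.

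**Figure D5:**
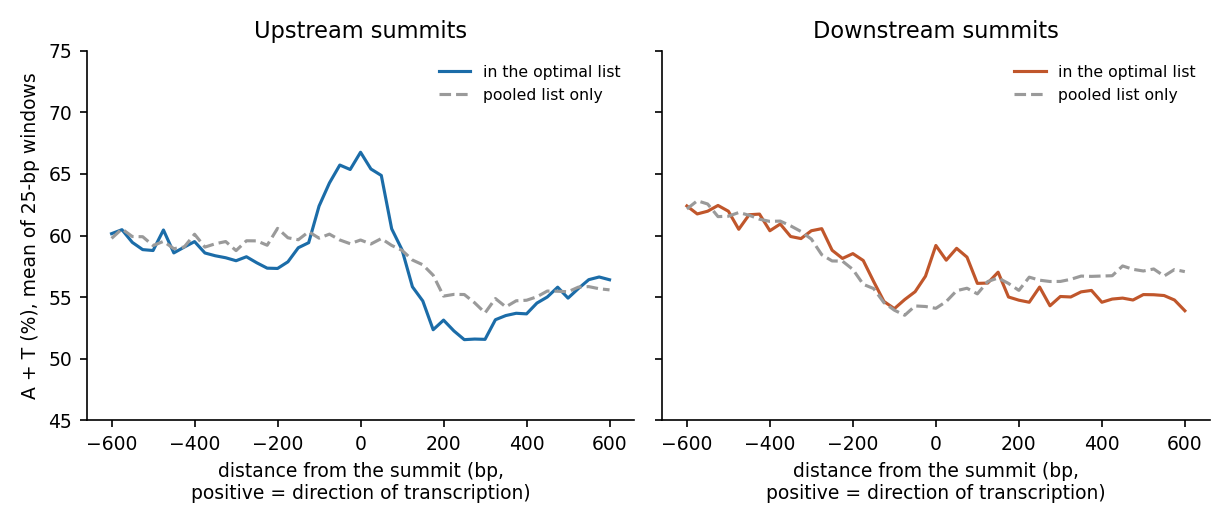
Mean A + T content (percent) in 25-bp windows at distances of up to 600 bp from the summit, oriented so that positive distances run with transcription, for upstream (left) and downstream (right) summits. Solid lines are optimal peaks and dashed lines are pooled regions not retained. Upstream optimal peaks reach 66.8% at the summit and drop to 51.6% at 300 bp toward the gene.

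The TATA box motif TATAAA, which in promoters is bound by the TATA-binding protein, was the most frequent of the 15 motifs within 50 bp of upstream summits, while within 100 bp TCAGT was in 34.4% of windows and TATAAA in 33.6%. It was present within 50 bp of 102 of 497 upstream summits (20.5%, 17.2 to 24.3%), against 31 of 308 downstream summits (10.1%, 7.18 to 13.9%). Replicate shares were 19.4, 22.4 and 19.96% upstream and 10, 9.18 and 9.69% downstream. Upstream windows 300 bp away held it in 11.9% of cases on the far side and 7.24% on the side of the gene, and upstream regions not retained in 15.5% (13.5 to 17.7%). In windows of the same length around all 15007 single TSSs, 17.4% held it 350 bp upstream and 7.97% held it 250 bp downstream. The upstream share was therefore just above that of its position, whose value lies inside the interval, and well above that of its flanks.

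Motifs rich in G and C were less frequent at upstream summits than in their flanks. GGGCGG, the GC box of Sp and KLF factors, was in 4 of 497 windows (0.805%, 0.313 to 2.05%), against 4.23% and 3.42% of their flanks and 2.57% of all single TSSs at that position. CACCC, also bound by KLF factors, was in 6.84% of upstream windows, against 14.3% and 7.85% of the flanks and 9.64% at all TSSs, while the replicates' own upstream regions had 9.55 ± 1.16% (SD, n = 3). GAGAGAG, the motif of GAGA factor, was in 2.21% of upstream windows, against 6.24% and 8.25% of flanks but 1.91% of all single TSSs at that position, and in 2.60% of downstream windows. Among the replicates' own upstream regions GAGAGAG was in 4.47 ± 0.214% (SD, n = 3), above the share in the optimal list.

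The remaining motifs varied in how far the classes differed. Runs of at least 7 A or T, AAAAAAA, were in 14.7% of upstream and 13.3% of downstream windows, against 10.4% and 7.75% of all TSSs at the same positions. CAGCTG, a bHLH motif, was in 2.82% of upstream (1.69 to 4.67%) and 6.82% of downstream windows (4.50 to 10.2%), against 3.56% and 4.93% of all TSSs. TCAGT, an initiator motif, was in 18.7% of upstream and 21.8% of downstream windows, against 15.4% of all TSSs at either position. CACGTG, another bHLH motif, and CAGGTAG, the motif of the pioneer factor Zelda, were in 0 of the 497 optimal upstream windows (0 to 0.767%). They were in 0.974% and 0.649% of downstream windows. The replicates' own upstream regions held them in 0.411 ± 0.202% and 0.138 ± 0.120% (SD, n = 3), so the absence belongs to the optimal list. The homeodomain motif TAATTA was in 7.85% of upstream and 6.17% of downstream windows, against 9.10% and 3.90% of all TSSs. The GATA factor motif GATAAG was in 5.63% and 3.25%, against 5.62% and 4.32% of all TSSs. CACACAC was in 3.02% of upstream and 6.17% of downstream windows, close to the 2.78% and 5.83% of all TSSs at the same positions. The promoter motifs TATCGATA and GGTCACAC and the AP-1 motif TGANTCA were each in under 3% of the windows of either class. None of the 15 motifs is held inside another, 12 upstream windows had both TATAAA and AAAAAAA, and 62.2% of upstream and 64.9% of downstream windows had at least 1 motif. A match is a run of letters and not a measured site.

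The starts used were often internal or alternative ones. Only 33.4% of upstream peaks and 30.2% of downstream peaks belonged to genes with a single annotated TSS, against 73.5% of all protein-coding genes, although a gene with more starts offers more places for a peak. The nearest TSS was the most upstream start of its gene for 53.1% of upstream and 58.1% of downstream peaks, against 71.1% of all protein-coding TSS positions. Of upstream summits 42.9% lay between genes and 43.1% in an intron of the same gene, and the rest were in exons of the same gene (3.82%) or in introns (6.24%) or exons (4.02%) of another gene. Noncoding RNA starts lay within 500 bp of 6.04% of upstream and 7.14% of downstream summits.

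A second optimal peak at the same TSS was uncommon. Another optimal summit lay within 200 bp of the nearest TSS for 27 upstream peaks (5.43%, 3.76 to 7.79%) and for 8 downstream peaks (2.60%, 1.32 to 5.04%). Where only the highest of overlapping peaks was kept, the shares were 0.214% upstream and 0.673% downstream, so most of these second peaks were overlapping calls. The X chromosome held 24.1% of upstream (20.6 to 28.1%) and 21.1% of downstream peaks (16.9 to 26.0%), against 15.7% of protein-coding genes. In replicates the X share was 23.96 ± 2.55% upstream and 21.9 ± 4.70% downstream (SD, n = 3). The animals were of both sexes, and no correction for X copy number was made here.

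In all, 451 genes had an upstream peak (3.23% of 13968 protein-coding genes), 298 had a downstream peak (2.13%), and 35 had both, of which 7 had both at the same TSS. Peaks that overlapped were counted apart, and the upstream peaks covered 487 and the downstream peaks 303 separate places. The highest summed signals among these were at ph-p (1972 over 3 peaks) and dnc, the cAMP phosphodiesterase gene dunce (1407 over 4 peaks). At CG32772 the downstream peak was the higher (154 upstream and 981 downstream), and at CG11151 the upstream one (632 upstream and 396 downstream). The nearest replicate summits to that upstream CG11151 summit all fell inside 200 bp of the TSS. Ptpmeg2, mrt, pdgy and spri followed, with best upstream signals of 686, 815, 557 and 363 and best downstream signals of 112, 117, 272 and 105. Rtnl1 had 4 upstream peaks at its 7 annotated starts. Moe, Svil and chas had 3 upstream peaks each and no downstream peak.

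CG7368 itself, the gene of the tagged protein, had an upstream peak 468 bp from its most upstream start. Its signal of 156 had rank 2954 in the optimal list and ranks 3604, 4758 and 2478 in replicates 1, 2 and 3. The summit was assigned to the upstream class in each replicate and its window held a GAGAGAG match.

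The genes of cytosolic ribosomal proteins, which build the ribosome, had no upstream peak and a small number of downstream peaks. Of 85 such genes, 0 had an upstream peak. With 3 of 85 genes taken as the limit, rather than a Wilson interval, this allows a share of up to 3.53%. It does not differ detectably from the 3.23% of all protein-coding genes. A downstream peak was present at 8 (9.41%), against 2.13%. The 8 summits lay 1 to 27 bp downstream of the TSS, in the 5′ UTR, with a median of 5 bp and signals of 144 to 432. Over all downstream peaks the median summit shift was 23, 14 and 15 bp in replicates 1, 2 and 3. At a median of 5 bp, the side of the TSS is therefore not resolved for these genes. RpL24 (signal 432, 9 bp), RpS10b (359, 4 bp) and RpS4 (344, 1 bp) were the highest. A further 23 ribosomal protein genes had summits 0 to 84 bp upstream and 22 had summits 0 to 89 bp from a divergent TSS, so the summits of all 53 genes lay within 89 bp of a start. A promoter peak of any class was thus nearest to 53 of the 85 genes, against 1631 of all 13968 protein-coding genes. The higher share of ribosomal protein genes was therefore not particular to downstream peaks. None of the 73 mitochondrial ribosomal protein genes had an upstream or downstream peak.

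Over all protein-coding genes, 3.23% had an upstream and 2.13% a downstream peak, and the 2 lists described here are set against these shares. Genes of the response to ecdysone, the steroid hormone that triggers metamorphosis, had peaks on both sides, 3 upstream (15%) and 5 downstream (25%) among 20 genes. E23, an ABC transporter gene, had a summit 205 bp upstream with a signal of 644 and ranks 158, 179 and 227 in replicates 1, 2 and 3. In all 3 replicates, however, the nearest summit to that of E23 fell inside 200 bp, so no replicate placed it in the upstream class. Eip75B, a nuclear receptor gene, had one 44 bp downstream with a signal of 461. Eip63F-1, which encodes a calcium-binding protein, had one 455 bp downstream in the first intron with a signal of 252. The summits of the other 5 genes had signals between 111 (Hr39) and 184 (Hr78). In replicates 1, 2 and 3, Eip74EF ranked 2353, 4289 and 2317, and br ranked 2000, 7547 and 6525. Eip63E ranked 5582, 10989 and 2770, and Hr39 ranked 3825, 7984 and 5475. Hr78 had no overlapping region in replicate 1 and ranked 3810 and 1446 in replicates 2 and 3. Of these 5 genes, only Eip74EF was among the highest regions of every replicate. In the insulin and TOR growth pathway, 1 of 18 genes (5.56%) had an upstream peak, Sesn, the sestrin gene (signal 815, 222 bp), and 4 (22.2%) had a downstream peak. Among the 4 were scyl (259, 38 bp), a hypoxia-induced inhibitor of TOR, and Lk6 (163, 58 bp), a kinase gene.

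Over all protein-coding genes, 3.23% had an upstream and 2.13% a downstream peak. The Notch, EGF receptor and disc patterning lists each had more genes with an upstream peak than with a downstream one. The Notch list had 5 upstream and 2 downstream genes of 15, and covered the receptor N, the ligand Ser, the coactivator mam and the E(spl) target genes. E(spl)m7-HLH had a signal of 269 at 355 bp upstream, E(spl)m3-HLH one of 246 at 318 bp upstream, and mam one of 171 at 252 bp upstream. All of these were among the highest regions of every replicate. The upstream peak of N was not, with ranks of 15593, 6324 and 2744 in replicates 1, 2 and 3. The EGF receptor list had 4 upstream and 0 downstream genes of 14. These were the antagonist aos (340, 370 bp), the ligand spi (314, 330 bp), and the ETS factor genes pnt (195, 340 bp) and aop (138). The aop peak ranked 1771, 5297 and 8522 in replicates 1, 2 and 3. The aos, spi and pnt peaks were among the highest regions of every replicate. The list of imaginal disc patterning genes had 5 upstream and 0 downstream of 32, with bowl the highest (471, 212 bp), then mirr (150, 462 bp) and so (148, 249 bp). The bowl peak was among the highest regions of every replicate. In replicates 1, 2 and 3, the mirr peak ranked 8877, 1701 and 5664 and the so peak 2122, 2700 and 7356.

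Against the same shares over all genes, 3.23% upstream and 2.13% downstream, muscle structure genes had 5 upstream and 1 downstream gene of 20, led by Msp300 (510, 341 bp upstream), rols (181, 288 bp) and the transcription factor gene Mef2 (155, 303 bp). Neuronal genes had 3 upstream and 0 downstream of 17: elav, an RNA-binding protein gene (612, 255 bp), futsch (168, 239 bp) and the potassium channel gene Sh (112, 355 bp). Sh ranked 17522, 2953 and 4891 in replicates 1, 2 and 3, whereas elav and futsch were among the highest regions of each. Clock genes had 3 upstream and 0 downstream of 11, with the kinase gene sgg at 604 (204 bp), the cryptochrome gene cry at 256 (231 bp) and vri at 146 (264 bp). The nearest replicate summit fell inside 200 bp for sgg in replicate 3 and for cry in replicate 2. These lists hold few genes each, so the counts describe these genes and no more.

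BTB zinc finger factor, insulator protein and Polycomb group genes are set against the 3.23% upstream and 2.13% downstream of all protein-coding genes. BTB zinc finger factor genes had 3 upstream and 3 downstream of 15. Trl, which encodes GAGA factor, had a summit 124 bp downstream (signal 440), lola one 280 bp upstream (354) and psq one 68 bp downstream (234). Insulator protein genes had 0 upstream and 2 downstream of 15, Trl again and CTCF (112, 60 bp). In replicates 1, 2 and 3, psq ranked 739, 1347 and 5935, and CTCF ranked 3449, 6557 and 4380. Trl and lola were among the highest regions of every replicate. Polycomb group genes had 2 upstream and 1 downstream of 16, ph-p and ph-d, its tandem duplicate, whose upstream summit (signal 225) lay 364 bp from the TSS. The labels do not say how reads that match both copies were placed, so the ph-p and ph-d values are uncertain.

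The remaining lists had at most 3 genes with a peak, where 3.23% of all protein-coding genes had an upstream and 2.13% a downstream peak. The upstream share of Rab genes (3.23%) and both shares of translation initiation factor genes (2.27% each) were near these values. Mer (473, 102 bp downstream) and ft (310, 486 bp upstream) stood for the Hippo growth pathway, and hid (484, 301 bp upstream), which promotes apoptosis, for 25 cell death and autophagy genes. In replicates 2 and 3 the nearest summit to that of ft lay past 500 bp. The JNK list had Tak1 (143, 249 bp upstream), the Fos gene kay (130, 158 bp downstream) and the phosphatase gene puc (113, 4 bp downstream). Stat92E (123) was downstream, Hsp22 (213) upstream and Hsp23 (119) downstream. Rab5 (414, 260 bp), the only 1 of 31 Rab genes, Act5C (239, 454 bp, with a lower downstream peak of 128) and 1 of 120 cuticle protein genes, Cpr73D (128), were upstream. Of 16 fat body and lipid genes, Lpin was upstream and Lsd-2 (150, 49 bp) downstream, and of 44 translation initiation factor genes, eIF2beta (109) was upstream and eIF4A (125) downstream. Several of these peaks were not among the highest regions of every replicate. In replicates 1, 2 and 3, kay ranked 2425, 3761 and 6269, and puc ranked 10860, 5636 and 3789. Stat92E ranked 9453, 2950 and 4519, and Hsp23 ranked 4666, 4729 and 5571. Cpr73D ranked 3248, 10488 and 2521, and eIF2beta ranked 18133, 5948 and 4292. Mer, ft, hid, Tak1, Hsp22, Rab5, Lpin, Lsd-2 and eIF4A were among the highest regions of every replicate.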

How the data were processed

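ChIP-seq of CG7368-GFP was analysed from 3 biological replicates of whole prepupae. The authors deposited peak lists, with a signal per region, for each replicate, for the replicates pooled and for the optimal list, in dm6 and dm3 coordinates. Per the file descriptions the optimal list came from the replicate and pooled lists, and per the labels the lists were input to the irreproducible discovery rate procedure. No label or header names the peak caller, the formula of the signal or the read depth. The dm3 lists and a possible control experiment that the labels name were not analysed here.

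Summits in dm6 were placed against TSSs (5′ ends of all transcripts) of 13968 protein-coding genes of Ensembl release 115. All regions lay inside the chromosomes of the dm6 reference. Ties between genes (10 upstream and 3 downstream peaks) went to the first gene ID. Replicate values come from the 5246 highest regions of each replicate, placed by the same rule. Overlap meant at least 1 bp. Python 3.11.15 with numpy 2.4.6, scipy 1.17.1 and matplotlib 3.10.9 was used, and the placing rule was tested on simulated positions. No test was made over regions, which are not independent animals. The members, the 23 gene lists and the motifs were chosen with earlier results of these data known. Of the list symbols, 30 were not matched. Named genes are those of the 12 highest peaks of each class, CG7368, the 8 genes with both kinds of peak and the highest summed signal, up to 3 genes per list, and the peaks beside each limit. Other genes named were chosen after their values were seen.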

Additional observations from a re-analysis of the deposited data

How the results depend on the processing

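With only the 5′ end of each gene as TSS there were 289 upstream and 267 downstream peaks, the 5′ UTR and first intron shares of downstream peaks were 71.9% and 24.7%, and the A + T difference of downstream summits from their flanks changed sign to -0.588 points. Among the 2623 optimal peaks with the highest signal there were 275 upstream and 130 downstream peaks, and the log2 ratio of medians was 0.16. There, 97.1% of upstream and 92.3% of downstream peaks were in the top of all 3 replicates, the A + T differences were 12.4 and 4.95 points, second peaks at the TSS were 2.55% and 1.54%, and 58.5% and 37.7% of downstream summits were in 5′ UTRs and first introns. TATAAA was then in 12.3% of downstream windows. Keeping only the highest of overlapping peaks left second peaks at the TSS for 0.214% of upstream and 0.673% of downstream peaks, and a limit of 100 bp left 1.81% and 0.325%. Requiring replicate summits within 100 bp gave 62.6% of upstream and 48.1% of downstream peaks in all 3 replicates. Flanks 1000 bp away gave 7.70 points of A + T for upstream summits. Motif windows of 100 bp either side held TATAAA in 33.6% of upstream and 19.2% of downstream cases, and TCAGT in 34.4% of upstream cases.

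To leave out each replicate in turn, only optimal peaks in the highest regions of both other replicates were kept. The optimal list itself still rested on all replicates. This gave 383 to 399 upstream and 198 to 206 downstream peaks and a log2 ratio of medians of 0.12 to 0.22. The A + T difference was 11.3 to 11.6 points upstream and 1.72 to 2.37 points downstream. The peaks kept were 77.1 to 80.3% of all upstream and 64.3 to 66.9% of all downstream peaks. Of the downstream summits kept, 61.2 to 63.2% were in 5′ UTRs and 31.9 to 34.0% in first introns. Second peaks at the TSS were 5.93 to 6.27% upstream and 2.91 to 3.54% downstream, and TATAAA was in 21.4 to 22.3% of upstream and 10.3 to 10.7% of downstream windows. Searching for opposite-strand starts from the TSS gave 513 upstream and 292 downstream peaks. For the other motifs, 79 of 140 alternative values moved by at least 1 SD between replicates, 47 of them higher and 32 lower. The higher ones include all values from windows of 100 bp either side, which can only raise a share, so the 2 counts show no direction. The causes were not tested. No paired analysis was possible because there is only 1 group. The unknown read depth limits all shares and signals.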
